A study of Mus musculus with 6 samples.

Results

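The genes that encode integrin and laminin chains were examined in MuSCs, the stem cells of skeletal muscle, during regeneration. They were taken by symbol (Itga followed by a number or letters, Itgb1 to Itgb8, and Lama, Lamb or Lamc followed by a number from 1 to 5), which selected 38 of the 49671 gene records in the files: 18 integrin α chains, 8 integrin β chains and 11 laminin chains, with Itgam listed under 2 gene identifiers. RNA-Seq libraries came from 3 mice that received RvD1 and 3 that received vehicle, all female C57BL/6 between 4 and 6 months of age, and each library was made from the pooled TA muscles of 1 mouse. Every mouse, controls included, received intramuscular BaCl2 (50 μL at 1.2%), which destroys myofibers, and cells were collected at day 3. RvD1, a lipid mediator that promotes the resolution of inflammation, was given daily by IP injection at 100 ng in saline with 0.1% ethanol, and the controls received the same 0.1% ethanol vehicle. Cells were sorted by FACS as positive for β1-integrin, the product of Itgb1, and CXCR4, and as negative for Sca-1, CD45, Ter119 and CD11b, the product of Itgam. The sample labels add CD31 to the markers selected against. The comparison asks whether RvD1 treatment altered the expression of these chains in MuSCs.

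Integrins are cell surface receptors made of 1 α and 1 β chain that bind the extracellular matrix or other cells and join them to the cytoskeleton. Laminins are heterotrimers of 1 α, 1 β and 1 γ chain that polymerize into the basement membrane around each myofiber, beneath which MuSCs reside. In skeletal muscle the main laminin-binding integrin is α7β1-integrin, and loss of the laminin α2 chain or of α7-integrin causes muscular dystrophy. Chains that pair with αv, such as β6 and β8, bind latent TGF-β, and β2 pairs with α chains of leukocytes.

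Total expected counts ranged from 16148026 to 28149176 per library, so that 3 counts, a limit set by counting error only, corresponded to 0.107 to 0.186 CPM. The summed level of 12 MuSC markers, none of which is an integrin or laminin chain, was 2285 to 2682 TPM (a scale that corrects for transcript length and library size) in the 6 libraries, and none of them was at 0 in all libraries. Pax7 was at 4.03 to 8.50 TPM and Myod1 at 239 to 470 TPM. RvD1 replicate 1 stood apart in markers of some other cells. The summed level of 12 fibro-adipogenic markers was 1972 TPM in that library against 905 to 1168 TPM in the other libraries. Col3a1, Gsn and Dcn supplied 806, 555 and 450 TPM of it. That of 9 Schwann cell markers was 180 TPM, 117 TPM of it from Pmp22, against 72.1 to 104 TPM. That of 9 pericyte and smooth muscle markers was 650 TPM, 512 TPM of it from Acta2, against 336 to 508 TPM. The leukocyte, endothelial and platelet sums of that library (80.7, 25.7 and 7.88 TPM) lay within the range of the other libraries. Its erythroid sum was the lowest, 11.4 TPM against 26.3 to 95.6 TPM. Fewer cells of a type and less RNA per cell cannot be told apart in such bulk samples.

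The levels of the chains spanned more than 3 orders of magnitude on the TPM scale. Of the 38 records, 2 had a mean of at least 100 TPM, 12 of at least 10 TPM and 23 of at least 1 TPM, while 15 were below 1 TPM. The 2 most abundant were Itga7 and Itgb1, which encode the α7β1-integrin laminin receptor. Itga7 (ENSMUSG00000025348, chromosome 10 of GRCm38, 128933818 to 128958282) was at 475, 502 and 586 TPM in RvD1 replicates 1, 2 and 3, and at 518, 499 and 458 TPM in vehicle replicates 1, 2 and 3. The highest value was that of RvD1 replicate 3 and the lowest that of vehicle replicate 3, and the groups overlapped. Itgb1 (ENSMUSG00000025809, chromosome 8, 128685654 to 128733200), whose product was used for sorting, was at 524, 448 and 487 TPM with RvD1 and at 469, 444 and 450 TPM with vehicle. Both groups shared the range from 448 to 469 TPM. The ratio of Itga7 to Itgb1 was 1.08 ± 0.152 (SD, n = 3) with RvD1 and 1.08 ± 0.0575 (SD, n = 3) with vehicle, so the 2 chains were present at nearly equal transcript levels.

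**Figure D1:**
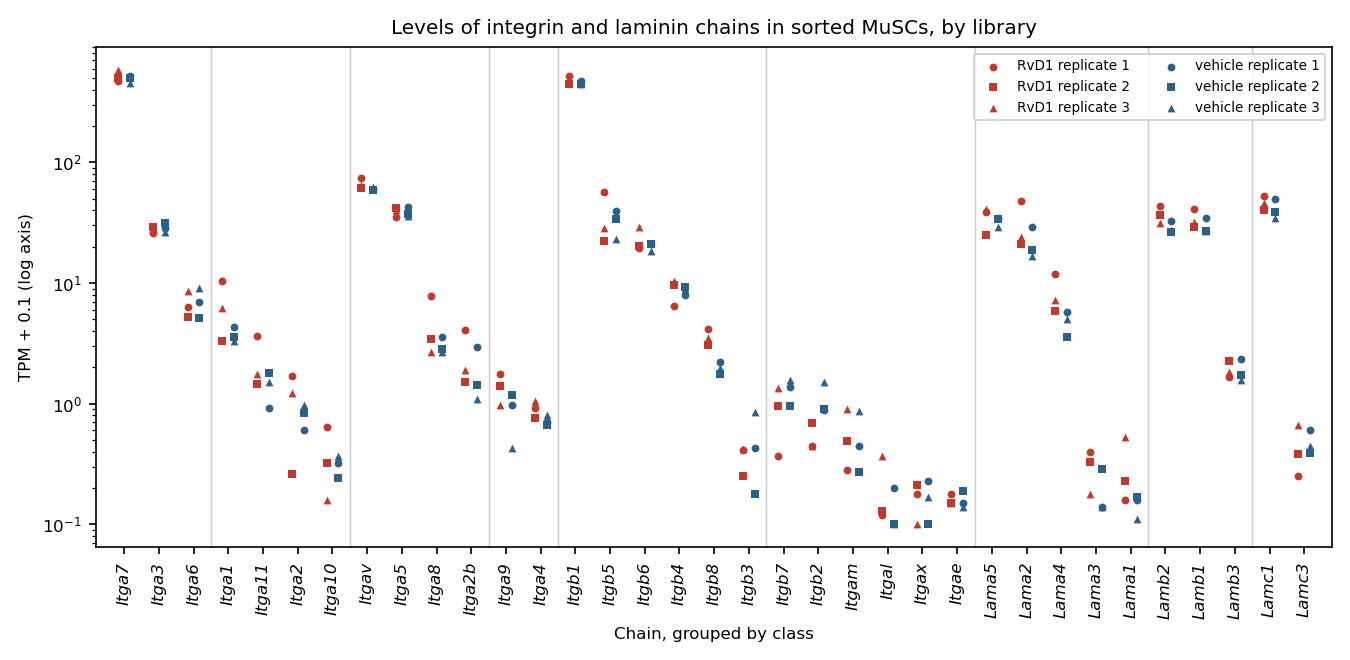
TPM plus 0.1 (log axis) of the reported chains with at least 1 count, grouped by class, with RvD1 libraries in red and vehicle libraries in blue and a symbol for each replicate number. Itga7 and Itgb1 lie at 444 TPM or more in all 6 libraries, the leukocyte chains lie at 1.47 TPM or less, and the symbols of both groups overlap for most chains.

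Itga7 made up 73.4% to 78.7% of the summed TPM of all α chains in the 6 libraries. Next were Itgav, which encodes the αv chain that binds RGD-containing ligands, with 8.79% to 11.6%, Itga5, the fibronectin receptor chain, with 5.37% to 6.38%, and Itga3, which binds laminin, with 3.76% to 4.83%. Itga6, the other laminin-binding α chain, had a mean of 6.63 TPM (SD 1.75) in the 3 RvD1 libraries and of 6.96 TPM (SD 1.96) in the 3 vehicle libraries. Among β chains, Itgb1 took 85.7% to 89.0%, followed by Itgb5 with 4.44% to 9.25% and Itgb6 with 3.15% to 5.19%. The shares differed between the groups by less than their SD for Itga7 (76.4% with RvD1, 76.9% ± 0.921 with vehicle) and for Itgb1 (87.2% and 87.5% ± 1.32). The 4 collagen-binding α chains were low, with Itga1 at 3.21 to 10.2 TPM and Itga2, Itga10 and Itga11 at 3.53 TPM or less.

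Of the laminin chains, Lamc1 (γ1), Lama5 (α5), Lamb1 (β1), Lamb2 (β2) and Lama2 (α2) were the most abundant. They are the chains of laminin-211, laminin-221, laminin-511 and laminin-521, the laminins of muscle basement membrane and of the neuromuscular junction. Lamc1 supplied 87.9% to 94.1% of the summed TPM of γ chains. Lamb1 and Lamb2 were nearly equal, with 43.1% to 50.1% and 46.7% to 53.7% of the β chains. The α chains were divided between Lama5, with 39.1% to 60.1%, Lama2, with 32.6% to 48.6%, and Lama4, an α chain of vessel and other basement membranes, with 6.20% to 11.9%. Lama1 and Lama3 stayed at or below 0.43 TPM in every library. The highest share of Lama2 and the lowest share of Lama5 belonged to RvD1 replicate 1, where the ratio of Lama2 to Lama5 was 1.24, against 0.554 to 0.839 in the other libraries. Shares of α chains depend on transcript length, because from expected counts not divided by length the mean share of Lama2 was 49.7% with RvD1 and 47.0% with vehicle, above that of Lama5 (36.9% and 41.8%).

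**Figure D2:**
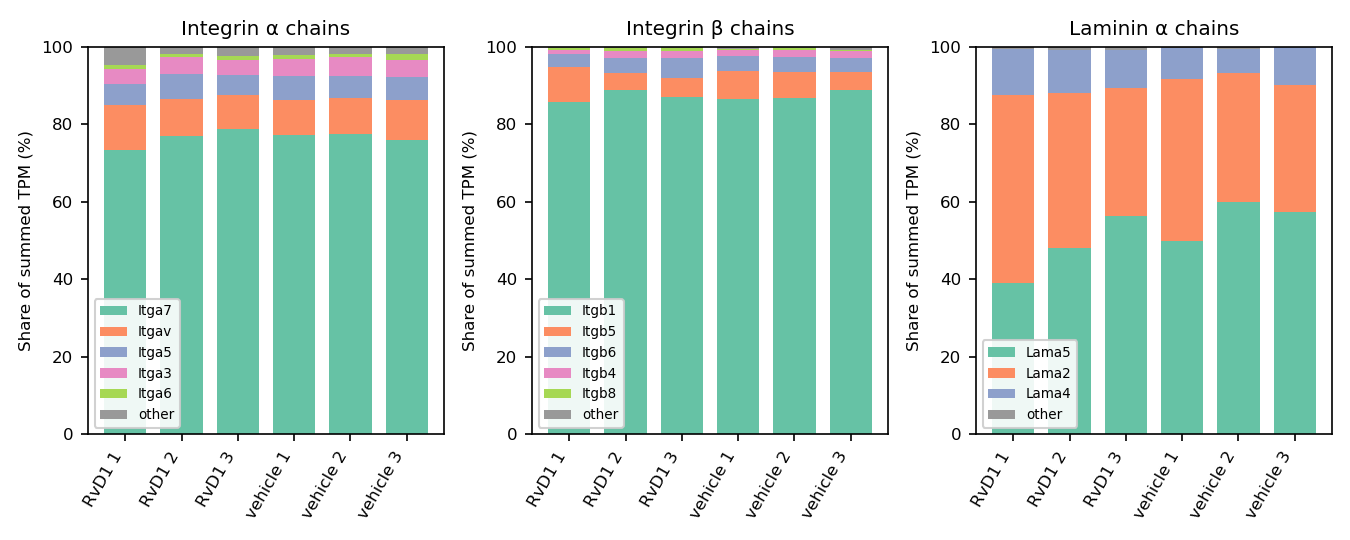
Share of each chain in the summed TPM of integrin α chains, integrin β chains and laminin α chains (stacked bars, percent) in each of the 6 libraries. Itga7 and Itgb1 dominate the integrin chains in every library, and RvD1 replicate 1 has the lowest share of Lama5 (39.1%).

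RvD1 and vehicle were compared with edgeR's quasi-likelihood test on expected counts rounded to whole numbers. Of the 38 records, 32 had enough counts to be tested, 22 integrin and 10 laminin chains, and none of them reached the count limit in 1 group only. The number with a Benjamini-Hochberg adjusted p under 0.05 was 0, as it was over all 14494 genes (0% called) with edgeR and with DESeq2, and the smallest adjusted p among the chains was 0.971 from edgeR. An unadjusted p under 0.05 was found for 3 chains (9.38%), 2 higher and 1 lower with RvD1, where 3.47% of all genes tested had one (1.83% higher and 1.64% lower). The groups did not overlap in normalized counts for 3 chains (9.38%), close to the 9.62% of all genes. The 3 were Itgb8, Lama4 and Itgav, all higher with RvD1, where 4.80% of all genes were higher without overlap. On the TPM scale, the groups of Itgav overlapped and those of Itgb2 did not.

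**Figure D3:**
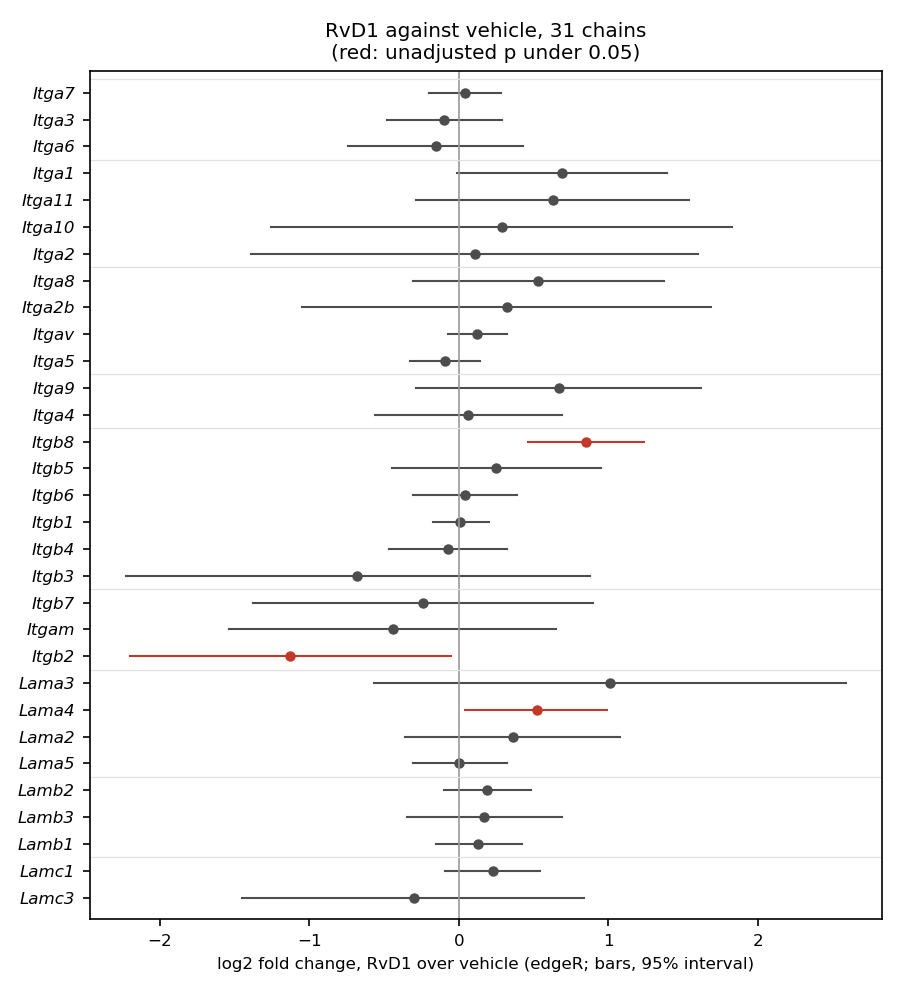
Log2 fold change of RvD1 over vehicle (points) with its 95% interval (bars) for 31 of the chains tested with edgeR, ordered by class and, within a class, by fold change. Red marks the 3 chains with an unadjusted p under 0.05, Itgb8, Lama4 and Itgb2. The intervals of the other 28 include 0.

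Itgb8 encodes the β8 chain, which pairs with αv and binds latent TGF-β. Itgb8 (ENSMUSG00000025321, chromosome 12 of GRCm38, 119158022 to 119238802) was at 4.05, 2.96 and 3.43 TPM in RvD1 replicates 1, 2 and 3 and at 2.13, 1.67 and 1.89 TPM in vehicle replicates 1, 2 and 3, from 414, 402, 297, 165, 138 and 172 expected counts. Every RvD1 library was above every vehicle library. The log2 fold change was 0.85 (standard error 0.17, 95% interval 0.46 to 1.24, edgeR unadjusted p = 0.000852, adjusted p = 0.971), a 1.80-fold difference and the second smallest p of all 14494 genes. In all 19 alternative fits the difference had the same direction and an unadjusted p under 0.05, and its adjusted p ranged from 0.131 to 1. Without RvD1 replicate 1 the log2 fold change was 0.75. The ratio of Itgb8 to its partner Itgav in TPM was 0.0516 ± 0.00303 (SD, n = 3) with RvD1 and 0.0313 ± 0.00386 (SD, n = 3) with vehicle.

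Itgav (ENSMUSG00000027087, chromosome 2, 83724397 to 83806916) was at 74.8, 61.4 and 65.4 TPM with RvD1 and at 59.7, 59.0 and 63.0 TPM with vehicle. RvD1 replicate 1 was highest, and RvD1 replicate 2 lay below vehicle replicate 3. The log2 fold change was 0.12 (standard error 0.09, 95% interval -0.07 to 0.32, edgeR adjusted p = 0.971). The other β chains that join αv are β5, β6, β3 and β1. Itgb5 was at 56.5, 22.4 and 28.4 TPM with RvD1 and at 39.2, 33.9 and 23.0 TPM with vehicle. Its log2 fold change was 0.25 (standard error 0.31, edgeR adjusted p = 0.971), and -0.26 without RvD1 replicate 1. Itgb6, a β chain best known from epithelia that also binds latent TGF-β, had a mean of 22.8 TPM (SD 5.47) with RvD1 and of 20 TPM (SD 1.49) with vehicle. Itgb3, the β chain of platelets and osteoclasts, had 5 to 51 counts in a library, and its log2 fold change was -0.68 (standard error 0.69, edgeR adjusted p = 0.971) but 0.28 without vehicle replicate 3.

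The sequence before the start of Itgb1 is shown because it is the most abundant β chain and the one used for sorting. RefSeq windows on GRCm38.p6 were found for 23 of the 37 symbols (26 windows). The 250 bases before each RefSeq start were searched for CANNTG, the E-box that myogenic factors such as MyoD bind and that reads alike on both strands, and for GGGCGG or its complement CCGCCC, the GC box. The 2 motifs can share an end base. An E-box occurred in 21 of the 26 windows and in 66.2% of all 32851 windows, and a GC box in 9 of the 26 and in 32.7% of all. GENCODE M21 places the start of some genes further upstream, and 15 of the 26 windows, that of Itgb8 among them, overlap the span of their gene in that annotation. The window of Itgb1 (chr8:128685404-128685653, plus strand) ends at the base before its gene in both annotations, and it holds 1 GC box, in capitals, and no E-box. A match describes the letters and does not show binding.
Itgb1: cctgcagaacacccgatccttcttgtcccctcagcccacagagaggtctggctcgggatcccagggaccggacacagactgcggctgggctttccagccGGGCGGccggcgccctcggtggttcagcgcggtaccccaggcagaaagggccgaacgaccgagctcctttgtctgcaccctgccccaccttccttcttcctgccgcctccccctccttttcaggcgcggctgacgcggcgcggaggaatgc

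Lama4 (ENSMUSG00000019846, chromosome 10, 38965515 to 39110188) was at 11.7, 5.74 and 7.16 TPM with RvD1 and at 5.65, 3.50 and 4.97 TPM with vehicle. RvD1 replicate 1 was far above the rest, and RvD1 replicate 2 exceeded vehicle replicate 1 by a small margin, so the groups did not overlap. The log2 fold change was 0.52 (standard error 0.21, 95% interval 0.04 to 0.99, edgeR unadjusted p = 0.0366, adjusted p = 0.971). It was 0.26 without RvD1 replicate 1, with an unadjusted p of 0.129 from edgeR, and the unadjusted p also exceeded 0.05 when any vehicle replicate was left out (0.0556 to 0.126).

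Lama2 (ENSMUSG00000019899, chromosome 10, 26980036 to 27619758), the chain lost in merosin-deficient dystrophy, was at 47.7, 20.8 and 23.9 TPM with RvD1 and at 29.1, 18.8 and 16.5 TPM with vehicle. Apart from RvD1 replicate 1 the groups overlapped. The log2 fold change was 0.36 (standard error 0.32, edgeR adjusted p = 0.971) and turned to -0.11 without that library. Lama5 (ENSMUSG00000015647) was at 38.4, 24.9 and 40.8 TPM with RvD1 and at 34.8, 33.9 and 29.2 TPM with vehicle. The TPM obtained per CPM varied 1.55-fold between libraries for Lama5, which limits the ordering of these values. Its log2 fold change from counts was 0.0024 (95% interval -0.31 to 0.32, edgeR adjusted p = 0.999). Lama3, with 3 to 26 counts in a library, had the largest positive log2 fold change of the chains, 1.01, with a standard error of 0.69 (edgeR adjusted p = 0.971), and it was 2.26 without vehicle replicate 2 and 0.62 without vehicle replicate 3.

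The β and γ chains complete the laminin trimers. Lamc1 (ENSMUSG00000026478, chromosome 1, 153218922 to 153332786) was at 52.4, 40.5 and 46.0 TPM with RvD1 and at 50.1, 39.0 and 34.3 TPM with vehicle, values that overlapped. Its log2 fold change was 0.23 (standard error 0.14, edgeR adjusted p = 0.971). Lamb1 was at 40.6, 29.2 and 31.9 TPM with RvD1 and at 34.8, 26.8 and 26.7 TPM with vehicle, and Lamb2 at 43.0, 36.4 and 31.4 TPM against 32.4, 26.3 and 27.3 TPM. Both overlapped between the groups, and their log2 fold changes were 0.13 (95% interval -0.15 to 0.42) and 0.19 (95% interval -0.10 to 0.48), each with an edgeR adjusted p of 0.971. Over all 10 laminin chains tested, 9 were above 0, and the median log2 fold change was 0.21, where 53.5% of all genes tested were above 0 with a median of 0.01. Of the 22 integrin chains 14 were above 0, with a median of 0.05. Without RvD1 replicate 1, 8 of the 10 laminin chains were above 0 with a median of 0.10, and 9 of the 22 integrin chains with a median of -0.02. Lama2 and Lama5 were then below 0. The summed laminin level was 240, 164 and 186 TPM with RvD1 and 192, 156 and 144 TPM with vehicle, so the groups overlapped. On the log2 scale of TPM plus 0.1, 67.6% of all genes were above 0, against 53.5% with edgeR. Higher TPM with RvD1 is therefore not particular to the chains.

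**Figure D4:**
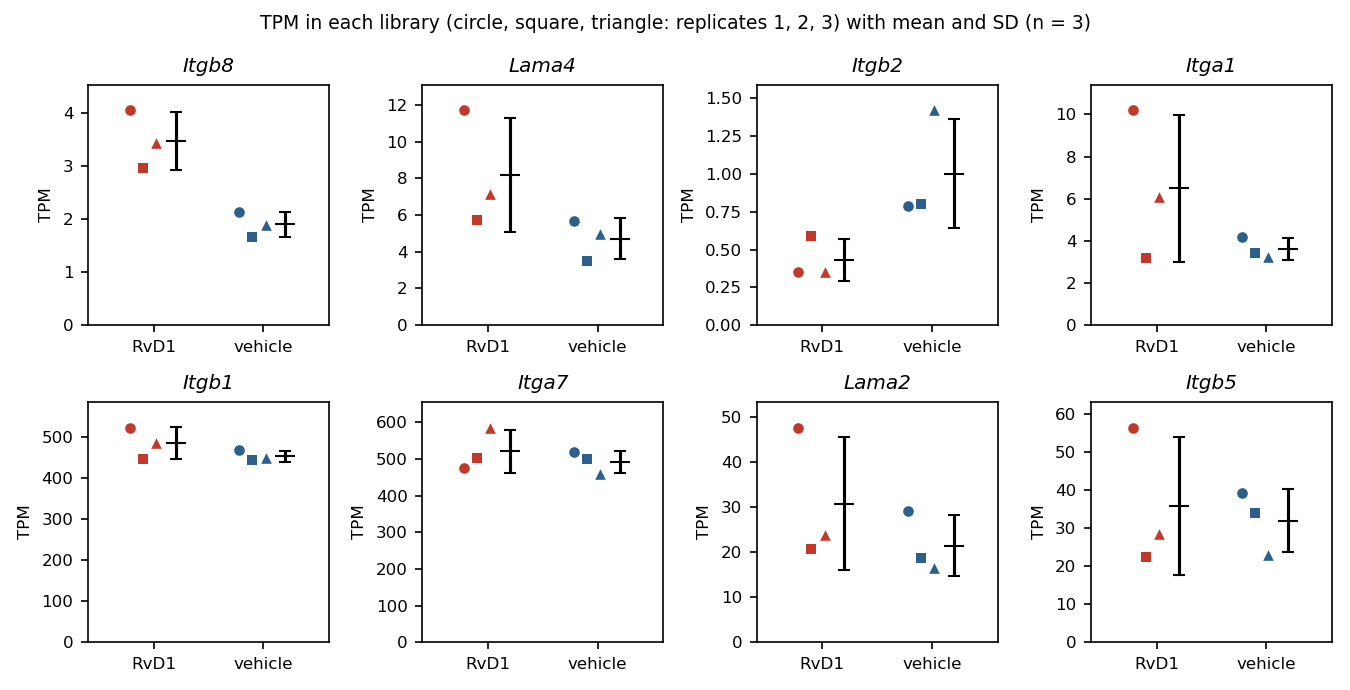
TPM of 8 chains in each library, with circles, squares and triangles for replicates 1, 2 and 3 and with the mean and SD of each group (n = 3) in black, on axes that start at 0. Itgb8 is separated between the groups, and RvD1 replicate 1 is the highest point for Itgb8, Lama4, Itga1, Itgb1, Lama2 and Itgb5.

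For the 2 chains of α7β1-integrin, the intervals were narrow. The log2 fold change of Itga7 was 0.04 (standard error 0.10, 95% interval -0.20 to 0.28, edgeR adjusted p = 0.977). That of Itgb1 was 0.01 (standard error 0.08, 95% interval -0.17 to 0.20, edgeR adjusted p = 0.992). Cells of both groups were selected for β1-integrin, so a difference of Itgb1 among unselected cells could not be seen here. Of the other laminin-binding chains, Itga3 was at -0.10 and Itga6 at -0.15 on the log2 scale, and neither passed an unadjusted p of 0.05. The 4 collagen-binding α chains all had log2 fold changes above 0, from 0.11 to 0.69, but without RvD1 replicate 1 Itga10 was at -0.58, Itga2 at -0.43 and Itga11 at 0.12. Itga10 and Itga2 were also below 0 with limma-voom. Itga1, the largest of them, was at 10.2, 3.21 and 6.10 TPM with RvD1 and at 4.19, 3.44 and 3.22 TPM with vehicle. Its log2 fold change of 0.69 (standard error 0.31, edgeR unadjusted p = 0.0531, adjusted p = 0.971) was 0.25 without RvD1 replicate 1. Itga8, an RGD-binding chain of mesenchymal cells, was at 7.65, 3.32 and 2.57 TPM with RvD1 and at 3.46, 2.75 and 2.60 TPM with vehicle, and its log2 fold change went from 0.53 to -0.07 without the same library. The chains of the α4 family, Itga4 and Itga9, were below 1.7 TPM in every library.

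Over the 32 chains tested, 23 (71.9%) had a log2 fold change above 0, as did 53.5% of all genes, and the median was 0.13. RvD1 replicate 1 was the highest of the 6 libraries for 17 chains (53.1%), where it was the highest for 30.6% of all genes tested. Without it, 17 of 32 chains were above 0 and the median was 0.03. The chains high in this library included Itga1, Itga8, Itga11, Itgb5, Lama2 and Lama4, and they were high where the fibro-adipogenic, pericyte and Schwann cell markers were also high (8 of 12, 6 of 9 and 8 of 9 markers highest in that library). Dcn, a fibroblast gene, was at 450 TPM there and at 182 to 284 TPM elsewhere. Other fibro-adipogenic markers peaked in other libraries, Pdgfra in RvD1 replicate 3 and Ly6a, Pi16 and Clec3b in vehicle replicate 1. Ly6a was at 25.4 TPM in RvD1 replicate 1 and at 39.7 TPM in vehicle replicate 1. The part of these cells in the levels of the chains was not tested. Of the 12 MuSC markers, 7 were also highest in that library. Their sum was 2670 TPM there, with Pax7 highest and Myod1 lowest of the 6 libraries.

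**Figure D5:**
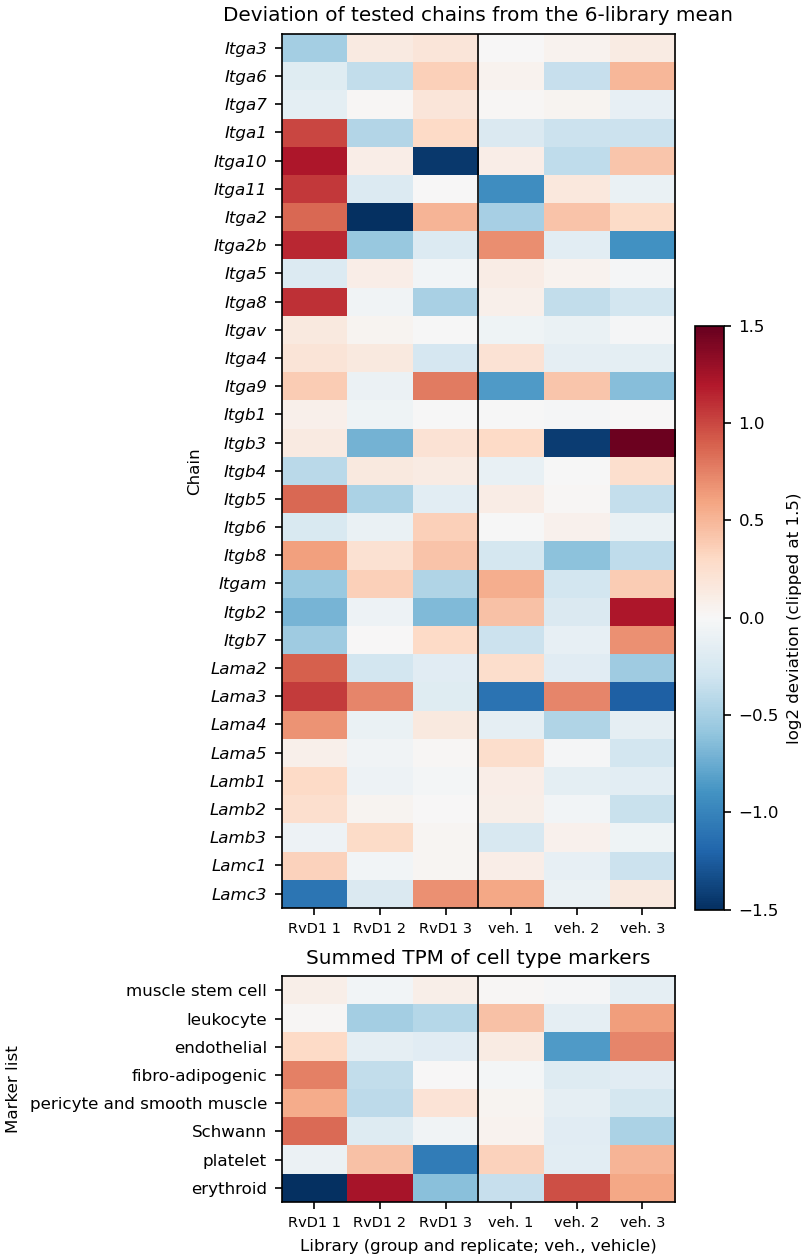
Deviation of 31 of the tested chains from their mean over 6 libraries (log2 of normalized CPM plus 0.1, upper panel) and of the summed TPM of 8 marker lists (log2, lower panel), colored from blue (below) to red (above) and clipped at 1.5. Itga1, Itga8, Itga11, Itgb5 and Lama2 are red in RvD1 replicate 1, as are the fibro-adipogenic and Schwann lists, and Itgb8 is red in all RvD1 libraries.

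Integrin chains of leukocytes were low, at 1.47 TPM or less in every library. Itgb2 (ENSMUSG00000000290, chromosome 10, 77530252 to 77565708), the common β2 chain of leukocytes, was at 0.35, 0.59 and 0.35 TPM with RvD1 and at 0.79, 0.8 and 1.42 TPM with vehicle, from 13, 27, 11, 23, 15 and 46 expected counts. All vehicle libraries were above all RvD1 libraries in TPM, but in normalized counts RvD1 replicate 2 exceeded vehicle replicate 2. The log2 fold change was -1.13 (standard error 0.47, 95% interval -2.20 to -0.05, edgeR unadjusted p = 0.0419, adjusted p = 0.971), and it was -0.64 without vehicle replicate 3, with an unadjusted p of 0.234 from edgeR. That p also exceeded 0.05 without RvD1 replicate 1, RvD1 replicate 3 or vehicle replicate 1 (0.0937, 0.105 and 0.0678). The other leukocyte chains tested, Itgam and Itgb7, had log2 fold changes of -0.44 and -0.24 with intervals that included 0. Itgam was at 0.17 to 0.8 TPM, and its TPM cannot be ordered with confidence because the TPM obtained per CPM varied 5.35-fold between libraries and 68.7% of its exonic bases are shared with the overlapping gene Gm49368, listed in the files as Itgam with 0 counts. Itgal, Itgax and Itgae had 11 counts or fewer in any library, and Itgad had 0 counts in every library, which allows up to 0.107 to 0.186 CPM. The summed level of 24 leukocyte markers was 56.1 to 80.7 TPM with RvD1 and 72.7 to 123 TPM with vehicle, with 18 of the 24 lower with RvD1, and S100a9 at 0 in every library. Their part in the level of Itgb2 was not tested.

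Genes that act with these chains were examined as 4 lists. Of 78 genes, 71 had enough counts to be tested. None had an adjusted p under 0.05 (0% of all genes called), and 6 had an unadjusted p under 0.05 from edgeR (3.47% of all genes called), 4 higher and 2 lower with RvD1. Among ligands and basement membrane partners, 3 of 20 passed the unadjusted threshold, all higher with RvD1. They were Fn1 (fibronectin, the ligand of α5β1), with 121, 54.9 and 101 TPM against 58.3, 57.0 and 57.1 TPM, Nid1 (nidogen, which links laminin to collagen IV), with 52.3, 30.7 and 36.9 TPM against 27.8, 25.1 and 26.1 TPM, and Tnc (tenascin-C), with 78.0, 40.8 and 66.1 TPM against 50.9, 36.7 and 36.5 TPM. RvD1 replicate 2 lay within or below the vehicle range for Fn1 and Tnc, while the groups did not overlap for Nid1. Their log2 fold changes were 0.66, 0.42 and 0.48, and 0.44, 0.24 and 0.29 without RvD1 replicate 1. Fn1 and Nid1 kept an edgeR unadjusted p under 0.05 in all 6 fits with 1 library left out, and Tnc lost it without RvD1 replicate 1, RvD1 replicate 3, vehicle replicate 2 or vehicle replicate 3. Of 10 membrane partners 1 passed, Cd151, a tetraspanin that binds laminin-binding integrins, with 102, 113 and 105 TPM with RvD1 against 114, 126 and 113 TPM and a log2 fold change of -0.28. Its unadjusted p exceeded 0.05 without RvD1 replicate 3, vehicle replicate 2 or vehicle replicate 3. Of 32 cytoplasmic partners tested, which include talins, kindlins, vinculin and integrin-linked kinase, 1 passed, Kank2, a talin-binding protein (log2 fold change 0.28), and the list's median was 0.03. Kank2 lost the call in 4 of the 6 fits with 1 library left out (RvD1 replicate 3 or any vehicle replicate), and its log2 fold change was 0.18 without RvD1 replicate 3. Among 9 genes of latent TGF-β, handled by αv integrins, Nrros, which anchors latent TGF-β on macrophages, passed with 0.68, 1.42 and 0.75 TPM with RvD1 against 1.92, 3.03 and 1.46 TPM with vehicle (log2 fold change -0.85). It lost the call in 5 of the 6 such fits, all but the one without RvD1 replicate 2. The 24 leukocyte markers were lower with RvD1 for 18 genes, and their part in the level of Nrros was not tested.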

How the data were processed

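Each of the 6 mice gave 1 library. Per the labels and the paper's Methods, single-ended reads were aligned to mm10 with STAR 2.5.0a and quantified per gene with RSEM, whose version is not given in the sources used here. The deposited expected counts are RSEM estimates that the authors did not scale for depth. The authors also deposited TPM and FPKM from RSEM, both corrected for effective transcript length and sequencing depth. SMART-Seq v4 libraries do not mark strand, so reads of overlapping genes on opposite strands cannot be told apart. After removal of 1 stray header line, 49671 genes remained.

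Counts were rounded and tested with edgeR 4.0.16 in R 4.3.3 (TMM normalization, filterByExpr by group, quasi-likelihood test, Benjamini-Hochberg adjustment over 14494 genes, threshold 0.05), a test chosen because the values are counts. Standard errors and 95% intervals came from the fold change and its test statistic. The paper's procedure, limma-voom (limma 3.58.1, sva 3.50.0) with surrogate variables removed, of which 1 was found, was an alternative, as were DESeq2 1.42.0, other normalizations and filters, a replicate block, TPM with a pseudocount of 1 or 0.1, FPKM and each library left out. In simulated counts with 200 genes changed 4-fold among 14257 tested, edgeR recovered 170 with 12 false calls. Recovery of differences below 4-fold, such as the 1.8-fold difference of Itgb8, was not tested. Libraries ranged from 16148026 to 28149176 total counts. P values measure the spread between mice.

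Full statistics were given for Itgb1, Itga7, Itgb8, the 2 chains with the highest mean TPM in each class, each chain with an unadjusted p under 0.05, and the 2 with the largest fold change in each direction. One chain that met this rule is not reported here. Itga1 and Itga8 were described further after their values were seen. The chains, gene lists and tests were chosen with earlier results of these data known. The same replicate numbers name different mice in the 2 groups.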

Additional observations from a re-analysis of the deposited data

How the results depend on the processing

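The number of chains with an adjusted p under 0.05 was 0 in all 19 alternative fits. Over all genes, that number was 0 except for 12 of 26641 without a filter and 1 without RvD1 replicate 3. The median log2 fold change over the chains stayed above 0 in each alternative fit (0.03 to 0.18). The median over all genes moved as well. It was 0.09 with TPM plus 0.1 (chains 0.09), 0.08 with TPM plus 1 (chains 0.11) and 0.05 with library totals (chains 0.16). In those fits a median above 0 was thus not particular to the chains. The number of all genes with an unadjusted p under 0.05 was 503 (3.47%). It was 1143 without a filter (4.29% of 26641) and 2973 with surrogate variables removed (11.2% of 26518). Removing surrogate variables before the fit overstates the residual degrees of freedom. It was 506 (3.49%) in limma-voom with no surrogate variable, 896 (6.18%) with a replicate block and 562 (3.88%) with FPKM. With 1 library left out it was 282 to 1016 (1.9% to 6.83%). The number of chains with an unadjusted p under 0.05, which was 3 of 32, was 5 of 36 without a filter on low counts. It was also 5 of 36 with surrogate variables removed, 1 in limma-voom with no surrogate variable, and 1 to 4 with 1 library left out. The count of 1, Itgb8 alone, arose without RvD1 replicate 1, vehicle replicate 1 or vehicle replicate 3. For partner genes the number, which was 6, was 13 without a filter, 19 with surrogate variables removed, 3 with FPKM and 2 to 13 with 1 library left out. The lowest arose without vehicle replicate 3 (1.9% of all genes). It was 12 and 13 without RvD1 replicates 1 and 2 (4.33% and 6.83% of all genes). The number of chains whose groups do not overlap was 3 to 9 with 1 library left out. The groups are smaller there, and the share over all genes is not given for those fits. This count therefore cannot be read as a result about the chains.

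Same-numbered libraries came from different mice and were treated as sharing only a number. Their deviations from the group means correlated at 0.31, -0.00071 and 0.126 for replicates 1, 2 and 3. Whether they shared a batch was not tested. With the replicate number as a block, 4 of 32 chains had an unadjusted p under 0.05 (Itgb8, Lama4, Itga1 and Lamc1) and 0 an adjusted one. In that fit 13 partner genes had an unadjusted p under 0.05. So did 6.18% of all genes, against 3.47% without the block. The block turned the log2 fold change of Itga2 to -0.09.

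Of 589 fold changes of the 31 reported chains under alternatives, 41 had the opposite sign. With all libraries kept, the values were -0.06 and -0.26 for Itga10 and -0.33 and -0.56 for Itga2 in limma-voom without and with surrogate variables removed, and in the latter 0.02 for Itgb4 and -0.01 for Itgb5. With TPM plus 1, TPM plus 0.1 and FPKM, Itgam gave 0.03, 0.07 and 0.0046. Itga5 gave 0.02 with either TPM pseudocount and Lamb3 -0.01 with FPKM. Lama5 gave -0.0027, -0.0027 and -0.0013 with DESeq2, DESeq2 size factors and no filter. With 1 library left out, the ranges were -0.58 to 0.73 for Itga10, -0.43 to 0.61 for Itga2, -0.44 to 0.87 for Itga2b, -0.21 to 0.09 for Itga3, -0.02 to 0.20 for Itga4, -0.39 to 0.10 for Itga6, -0.05 to 0.12 for Itga7, -0.07 to 0.81 for Itga8, -0.02 to 0.04 for Itgb1, -1.16 to 0.28 for Itgb3, -0.17 to 0.08 for Itgb4, -0.26 to 0.50 for Itgb5, -0.15 to 0.15 for Itgb6, -0.45 to 0.20 for Itgb7, -0.11 to 0.59 for Lama2, -0.12 to 0.15 for Lama5 and -0.88 to 0.05 for Lamc3. The cause of these changes was not tested. For low chains, fewer than 30 counts per library limit the precision, as for Lama3, Itgb7 and Itgam.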
